A study of Mus musculus with 9 samples.

Results

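The SoxF genes Sox7, Sox17 and Sox18 were followed in the right ventricle of 9 mice. They are 3 of the 18820 genes that could be tested, and each was measured by 1 probe set naming it alone. They were selected on the measured differences of Sox18, which was known from these arrays to be higher with MCT and higher again with the NI diet, and Sox7 and Sox17 were added as its family. The values of Sox18 are therefore given as a description without a test. The RNA came from the right ventricle of female C57BL/6 mice, with 1 array per mouse and 3 mice per group. MCT+NI mice (615, 617 and 619) received monocrotaline (MCT), a plant alkaloid that injures the pulmonary vessels, at 600 mg/kg weekly under the skin for 8 weeks from the age of 10 weeks. They ate an isocaloric nutritional intervention (NI) diet with added fish oil, oligosaccharides, leucine and protein. MCT mice (640, 641 and 644) received the same injections on the standard AIN-93M diet, and sham mice (620, 624 and 625) received saline on that diet. According to the labels all diets began 2 weeks before the injections, whereas the methods give a shorter lead. The methods describe the mice as matched for disease severity. The study had no sham mice on the NI diet, so the diet without MCT cannot be read here.

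SoxF proteins are transcription factors that bind DNA through a high-mobility-group box and are expressed mainly in endothelial cells. In mouse embryos the 3 factors partly replace each other in forming vessels. Sox18 is best known for starting lymphatic vessels through Prox1, Sox17 for arterial identity together with Notch signalling, and Sox7 for early endothelial and blood development. In humans, rare variants of SOX17 predispose to pulmonary arterial hypertension, the condition that MCT is used to model.

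All values are log2 intensities normalised by RMA, so that a difference of 1 is a doubling. Levels of different probe sets were not set against each other, except for a cut at the median level of all genes. Ventricular cardiomyocyte markers were alike in all mice, with a mean between 12.02 and 12.12. Transcripts of atrial muscle were not. Their mean was 9.16, 6.01 and 5.24 in MCT+NI mice 615, 617 and 619, against 5.13, 5.50 and 10.69 in MCT mice 640, 641 and 644. In sham mice 620, 624 and 625 it was 10.17, 11.05 and 10.95. MCT mouse 644 and MCT+NI mouse 615 thus stood apart from their groups. The group differences of each SoxF gene are also given without these mice. The other mice given MCT lay between 5.13 and 6.01, and every sham mouse at 10.17 or above. Without mice 644 and 615 the contrasts with sham mice therefore cannot be told from atrial content. A fit with the atrial mean as a covariate is given too. That fit can tell them apart only in part, because every sham mouse was high and most mice given MCT were low. The part of atrial tissue in the results was not tested beyond these fits.

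Sox18 had its highest values in MCT+NI mice, intermediate values in MCT mice and its lowest in sham mice, without overlap. It lies at chr2:181669837-181671640 (GRCm38.p6) and no annotated gene overlaps it. Its log2 intensity was 7.90, 7.92 and 7.85 in MCT+NI mice 615, 617 and 619, against 7.68, 7.64 and 7.72 in MCT mice 640, 641 and 644. In sham mice 620, 624 and 625 it was 7.03, 6.99 and 6.97. The 3 groups therefore formed separate bands, and the lowest MCT+NI mouse lay above the highest MCT mouse. In the MCT+NI vs MCT comparison 3.11% of all genes were higher without overlap, in MCT vs sham 11.7% and in MCT+NI vs sham 10.7%, and nothing is read from Sox18 against these shares because its contrasts chose it. Group means were 7.89 ± 0.036 in MCT+NI mice, 7.68 ± 0.038 in MCT mice and 6.998 ± 0.031 in sham mice (SD, n = 3 each). The diets (MCT+NI vs MCT) differed by 0.21, or 1.16-fold. For MCT vs sham the difference was 0.68 (1.60-fold), and for MCT+NI vs sham 0.90 (1.86-fold). With mice 644 and 615 left out the 3 differences were 0.23, 0.66 and 0.89 in the same order. With the atrial mean as a covariate they were 0.22, 0.71 and 0.93. The SE of the contrasts with sham was 0.058 (MCT) and 0.060 (MCT+NI) in that fit, against 0.043 without the covariate. In bulk tissue more endothelial cells and more RNA per cell cannot be told apart.

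**Figure D1:**
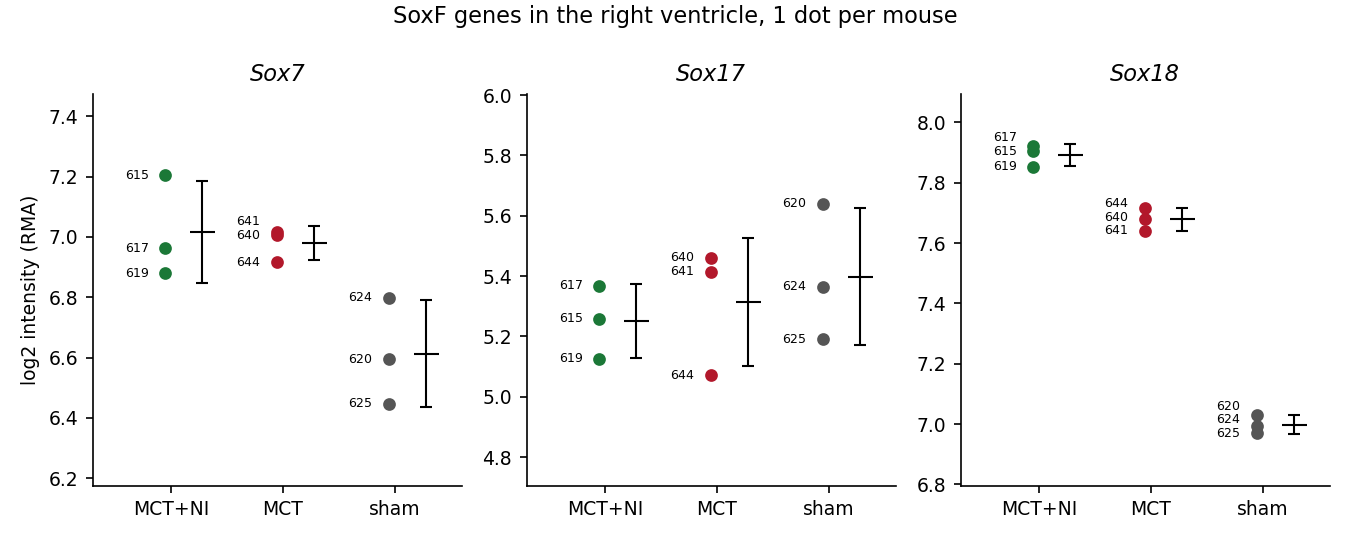
Log2 intensity (RMA) of Sox7, Sox17 and Sox18 in each mouse (dots, with mouse numbers) of the MCT+NI, MCT and sham groups, with group means and SD beside the dots; the panels have the same span but different starting levels. The Sox18 groups form 3 separate bands, Sox7 separates both MCT groups from sham, and the Sox17 groups overlap throughout.

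Such a 3-step order was rare in the table. Of the 18820 genes, 53 (0.282%) had each MCT+NI mouse above each MCT mouse and each MCT mouse above each sham mouse, and 44 (0.234%) had the reverse order. Sox18 was picked for this order, so nothing follows from its place among the 53. Among them 10 genes, Sox18 included, had a diet step (MCT+NI vs MCT) at least as large as that of Sox18. For the MCT vs sham step there were 5 such genes, again with Sox18. Of the 198 listed genes other than the SoxF family, 2 had the same order. One was Mfng, a glycosyltransferase that modifies Notch receptors, and the other was Acta2, the actin of smooth muscle and myofibroblasts. Mfng had log2 intensities of 6.65, 6.60 and 6.498 in MCT+NI mice, 6.31, 6.44 and 6.13 in MCT mice and 6.10, 6.11 and 5.94 in sham mice. The diets differed by 0.29 in Mfng, which is given without a test because it was picked for this order.

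Sox7 separated both MCT groups from sham mice but not the diets. It lies at chr14:63943706-63950732. Its log2 intensity was 7.20, 6.96 and 6.88 in MCT+NI mice 615, 617 and 619, against 7.01, 7.02 and 6.92 in MCT mice 640, 641 and 644. In sham mice 620, 624 and 625 it was 6.59, 6.80 and 6.45. Every mouse given MCT, on either diet, lay above every sham mouse, while the MCT+NI mice lay on both sides of the MCT mice. The means were 7.01 ± 0.17 in MCT+NI mice, 6.98 ± 0.056 in MCT mice and 6.61 ± 0.18 in sham mice (SD, n = 3 each). The MCT vs sham difference of Sox7 was 0.37 (1.29-fold, SE 0.105, 95% interval 0.13 to 0.60). It missed the threshold of 0.05 (limma, adjusted p = 0.0824). Such a lack of overlap was no rarity here, being met in this direction by 11.7% of all genes. The MCT+NI vs sham difference was 0.40 (1.32-fold, limma adjusted p = 0.0596), where 10.7% of all genes were higher without overlap. The spread of the sham mice bears on both values. Without sham mouse 624, the highest of its group, the adjusted p (limma) was 0.0485 for MCT and 0.0388 for MCT+NI against sham mice. Without sham mouse 625, the lowest, it was 0.204 and 0.157. Without MCT mouse 640 or 641 the MCT vs sham value was 0.219 or 0.204. With mice 644 and 615 left out the differences were 0.40 and 0.31 (adjusted p = 0.0978 and 0.209). Between the diets the difference was 0.04 (95% interval -0.20 to 0.27, adjusted p = 1), or between 0.869-fold and 1.21-fold. Without MCT+NI mouse 615 it was -0.059, so its direction rested on that mouse, and it was -0.091 without mice 644 and 615. With the atrial mean as a covariate Sox7 differed by 0.04, 0.42 for MCT vs sham (adjusted p = 0.203) and 0.46 for MCT+NI vs sham (adjusted p = 0.216).

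Sox17 did not pass the test in any comparison. It lies at chr1:4490928-4497426. Its log2 intensity was 5.26, 5.37 and 5.12 in MCT+NI mice 615, 617 and 619, against 5.46, 5.41 and 5.07 in MCT mice 640, 641 and 644. In sham mice 620, 624 and 625 it was 5.64, 5.37 and 5.19. The 3 groups overlapped and the spread within the MCT group, between mouse 644 and mouse 640, exceeded each difference between group means. The means were 5.25 ± 0.12 in MCT+NI mice, 5.31 ± 0.21 in MCT mice and 5.40 ± 0.23 in sham mice (SD, n = 3 each). The MCT vs sham difference was -0.08 (95% interval -0.40 to 0.23, limma adjusted p = 0.796). In fold terms the interval reached from 0.758-fold to 1.18-fold. Between the diets the difference was -0.06 (-0.38 to 0.25, adjusted p = 1), and the MCT+NI vs sham difference was -0.15 (-0.46 to 0.17, adjusted p = 0.621). The direction for MCT vs sham was not fixed, since the difference was 0.039 without MCT mouse 644 and 0.037 without sham mouse 620. With mice 644 and 615 both left out, Sox17 differed by 0.039 for MCT vs sham, -0.19 between the diets and -0.15 for MCT+NI vs sham. The diets differed by 0.0082 without MCT mouse 640. With the atrial mean as a covariate the differences were -0.26 for MCT vs sham, -0.08 between the diets and -0.34 for MCT+NI vs sham, none of which passed (lowest adjusted p = 0.463). The mean of Sox17 over all mice, 5.32, was below the median level of all genes, 5.42.

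**Figure D2:**
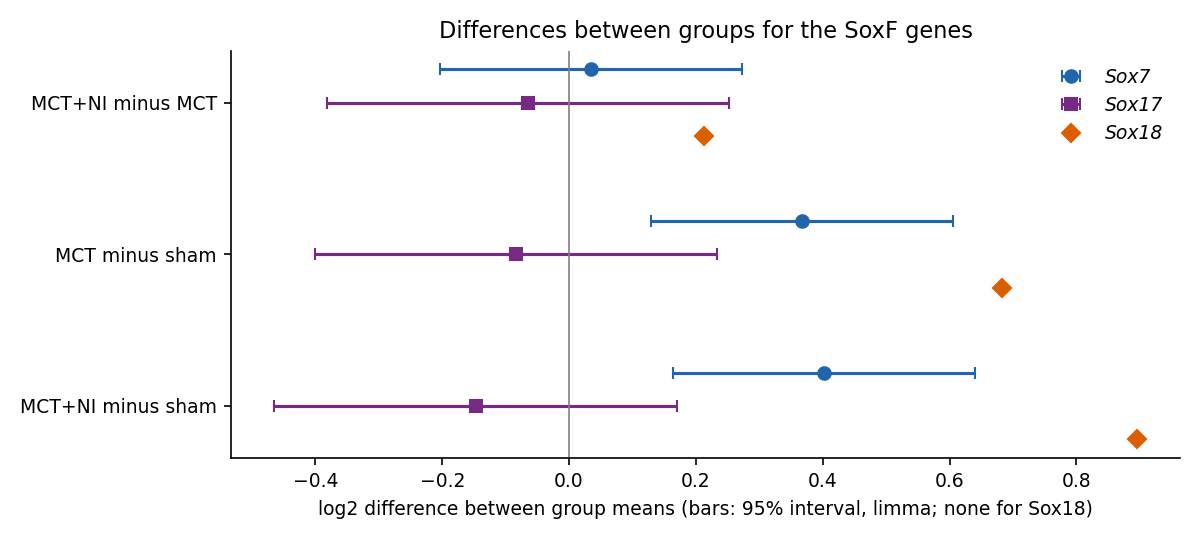
Log2 differences between group means for Sox7 (circles), Sox17 (squares) and Sox18 (diamonds) in the 3 comparisons, with 95% intervals from limma for Sox7 and Sox17 and none for Sox18, which was chosen for these differences. Sox18 lies at 0.21, 0.68 and 0.90, Sox7 at 0.04, 0.37 and 0.40, and each Sox17 interval contains 0.

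The 3 genes were also compared within mice. Within each array, Sox7 minus Sox17 was 1.95, 1.59 and 1.75 in MCT+NI mice and 1.54, 1.60 and 1.84 in MCT mice, against 0.96, 1.43 and 1.26 in sham mice. Only shifts of this quantity between groups can be read, because the probe sets differ. It was higher in every mouse of both MCT groups than in any sham mouse, by 0.55 for MCT+NI and 0.45 for MCT mice on the mean, and no test was applied to this combined value. Sox7 alone separated these groups too, and the share of gene pairs that do so was not determined. Over the 9 mice Sox7 and Sox18 had a Pearson r of 0.83, but after the group means were removed r was 0.19. For Sox17 and Sox18 r was -0.33, and 0.25 within groups. These values mix the shared group differences with the spread between single mice and are a description over 9 mice.

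Because the SoxF genes are endothelial, their values were set beside 25 pan-endothelial markers. For MCT vs sham 11 of the 25 rose and 1 fell, against 4.65% and 1.61% of all genes (limma, adjusted p under 0.05). The median difference was 0.35, and -0.02 over all genes. Among those higher was Icam2, an adhesion molecule of endothelial junctions, and the 1 lower was Flt1, a VEGF receptor. For MCT+NI vs sham 14 were higher and 2 lower, against 4.52% and 1.75% of all genes, with a median of 0.39, and 9 instead of 16 passed with the atrial mean as a covariate. Over all genes 401 instead of 1179 passed with that covariate. For MCT+NI vs MCT 0 of the 25 passed at an adjusted p and 0 at an unadjusted p of 0.05. Of all genes 0% passed in that comparison at an adjusted p (2.9% unadjusted). The mean of the markers was 8.42, 8.25 and 8.36 in MCT+NI mice 615, 617 and 619, 8.34, 8.39 and 8.31 in MCT mice 640, 641 and 644 and 7.93, 8.02 and 8.13 in sham mice 620, 624 and 625. Both MCT groups lay above the sham mice and overlapped each other.

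After this mean was subtracted in each mouse and the sham mean set to 0, Sox18 was at 0.58 ± 0.11 in MCT+NI mice and 0.36 ± 0.076 in MCT mice, with sham mice between -0.13 and 0.13. Relative to the mean of these markers Sox18 was higher in every mouse given MCT than in any sham mouse. Nothing is read from this, because Sox18 was chosen for its group differences. The share of all genes that separate after this subtraction was not determined. The marker mean pools 18 markers that were higher in MCT vs sham and 7 that were lower. Cd93 (1.38), Robo4 (1.11), Mmrn2 (1.03) and Icam2 (0.93) were among those that differed by more than Sox18 (0.68). Egfl7 (0.38) was among those that rose by less. Sox7 was at 0.09 ± 0.13 in MCT+NI mice and 0.05 ± 0.029 in MCT mice, within the sham range of -0.27 to 0.19 except for MCT+NI mouse 615 at 0.20. Sox17 was at -0.46 ± 0.18 in MCT+NI mice and -0.40 ± 0.19 in MCT mice. The sham mice lay between -0.31 and 0.34, so the groups overlapped through sham mouse 625. With the marker mean as a covariate in place of subtraction, Sox18 differed by 0.21 between the diets, 0.78 (SE 0.093) for MCT vs sham and 0.99 (SE 0.093) for MCT+NI vs sham. The same fit gave 0.33 for Sox7 in MCT vs sham, with an SE of 0.25. For Sox17 it gave 0.29 (SE 0.30), opposite in sign to the difference without the covariate and to the -0.40 by subtraction. The marker mean itself separated the MCT groups from sham mice, so this fit can hardly tell it from the contrasts with sham. In it 9 genes passed for MCT vs sham and 8 for MCT+NI vs sham, against 1179 each without the covariate.

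**Figure D3:**
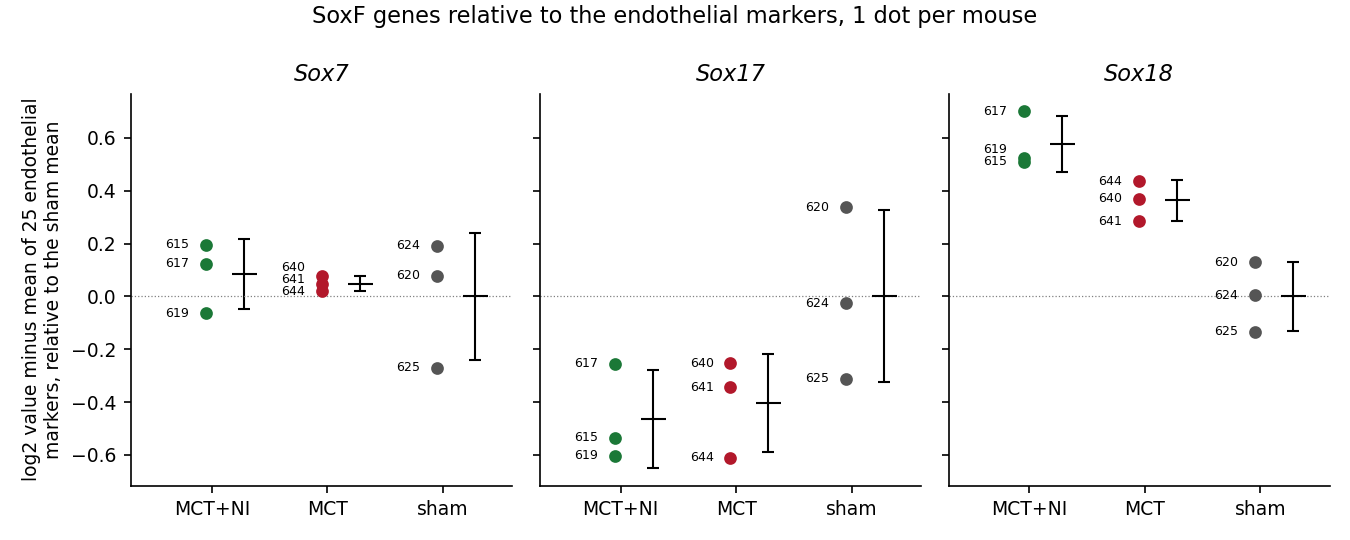
Log2 values of Sox7, Sox17 and Sox18 minus the mean of 25 pan-endothelial markers in the same mouse, relative to the sham mean (0), for each mouse of the MCT+NI, MCT and sham groups, with group means and SD. Sox18, which was chosen for its group differences, lies in 3 separate bands, Sox7 overlaps the sham mice, and Sox17 lies below 0 in all 6 mice given MCT.

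Genes reported as SoxF targets did not move together. Of 15 measured, 3 passed as higher and 0 as lower for MCT vs sham, against the 4.65% and 1.61% of all genes above, and the median difference was -0.09. The 3 were Robo4, Cdh5 and Flt4, all of which were also among the endothelial or lymphatic markers. Robo4, a receptor that stabilises vessel walls, had log2 intensities of 8.26, 8.20 and 8.13 in MCT+NI mice and 8.35, 8.38 and 7.91 in MCT mice, against 7.15, 7.09 and 7.06 in sham mice. For MCT vs sham it was 1.11 (2.16-fold) higher (SE 0.11, adjusted p = 0.000638) with no overlap. Cdh5, the cadherin of endothelial junctions, was 0.74 (1.67-fold) higher (adjusted p = 0.00186). Flt4, the receptor for lymphatic VEGF-C, was 0.52 (1.43-fold) higher (adjusted p = 0.00717). In these 3 genes the diets differed by -0.02, 0.04 and 0.05 (adjusted p = 1 each).

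For MCT+NI vs sham 5 of the 15 were higher and 1 was lower, against 4.52% and 1.75% of all genes. Kdr, the main VEGF receptor of blood vessels, was 0.57 (1.49-fold) higher (adjusted p = 0.0205), and Cldn5, a tight junction protein, was 0.78 (1.71-fold) higher (adjusted p = 0.0318). Tek, the angiopoietin receptor, fell by 0.62 (0.653-fold, adjusted p = 0.0348). This count depended on single mice. It was 3 without MCT+NI mouse 619 and 3 without sham mouse 624, and 2 with the atrial mean as a covariate. Over all genes the MCT+NI vs sham calls were 625, 787 and 401 in these fits, against 1179 with all mice and no covariate. The count for MCT vs sham was 6 without MCT+NI mouse 617. Without that mouse 1196 of all genes passed in MCT vs sham, against 1179. Of the reported targets that did not pass in either comparison with sham mice, 3 are named after their values were seen. Prox1, the lymphatic regulator downstream of Sox18, differed by -0.13 in MCT vs sham (adjusted p = 0.546). Notch1 and Dll4, a receptor and a ligand of the Notch pathway linked to Sox17, differed by -0.13 and -0.12 (adjusted p = 0.495 and 0.581).

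The promoters of Robo4 and Flt4 are printed because both genes rose with MCT and are reported targets. The sequences are from RefSeq (GRCm38.p6), the 250 bases before the annotated start, 5′ to 3′ on the plus strand, with the core SOX motif ACAAT or its reverse complement ATTGT in capitals.
Robo4, chr9:37401722-37401971: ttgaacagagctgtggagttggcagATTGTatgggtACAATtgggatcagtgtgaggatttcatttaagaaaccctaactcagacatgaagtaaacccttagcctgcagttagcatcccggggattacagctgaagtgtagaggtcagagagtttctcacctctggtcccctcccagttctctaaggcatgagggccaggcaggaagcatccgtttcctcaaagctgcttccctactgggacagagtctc
Flt4, chr11:49609429-49609678: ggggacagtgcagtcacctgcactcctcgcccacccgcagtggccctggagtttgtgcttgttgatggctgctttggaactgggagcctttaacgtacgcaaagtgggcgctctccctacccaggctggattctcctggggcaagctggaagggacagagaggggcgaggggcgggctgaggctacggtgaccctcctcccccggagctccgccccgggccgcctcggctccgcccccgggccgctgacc
The Robo4 stretch held the motif on each strand, at bases 26 and 37 of the 250, and the Flt4 stretch held no match. Of the 32851 promoter stretches of this length in the table, 27.7% held a match. Of the 15 reported targets 12 had an entry, and 3 of these 12 (Robo4, Tek and Mmp7) held a match. A match marks these letters and not a bound site.

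**Figure D4:**
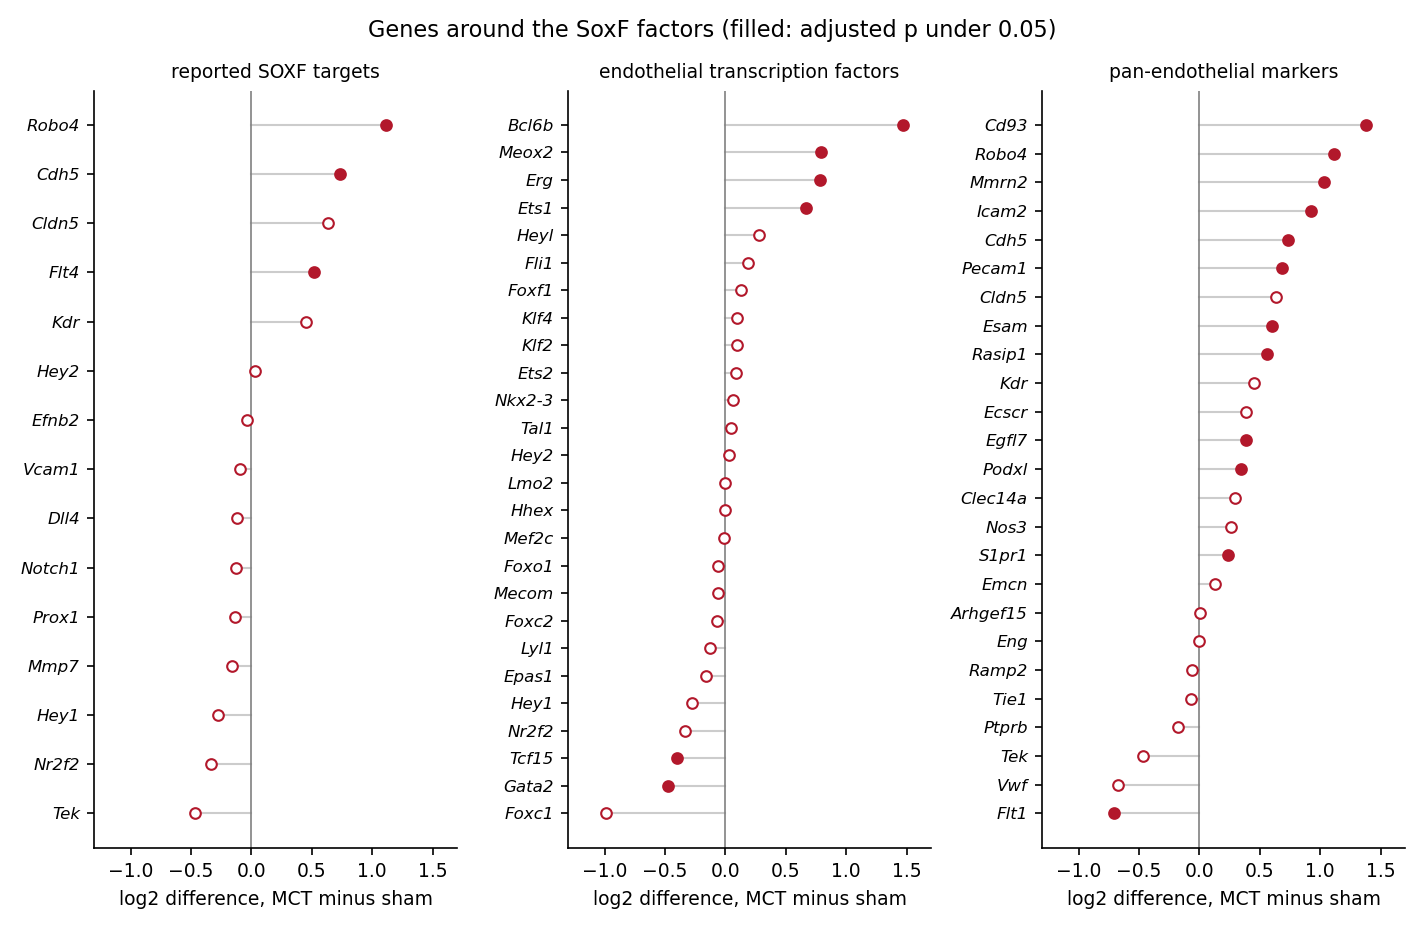
Log2 difference between MCT and sham mice for each measured gene of 3 lists (reported SOXF targets, endothelial transcription factors and pan-endothelial markers), with filled dots for an adjusted p under 0.05 (limma). Filled dots lie on the higher side for 3 of 15, 4 of 26 and 11 of 25 genes, and on the lower side for 0, 2 and 1.

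Other endothelial transcription factors moved in both directions. Of 26 measured, 4 passed as higher and 2 as lower in MCT vs sham, against 4.65% and 1.61% of all genes, with a median difference of 0.01. Bcl6b, a transcriptional repressor of the endothelium, had log2 intensities of 8.97, 8.26 and 8.82 in MCT+NI mice and 8.75, 8.72 and 8.47 in MCT mice, against 7.15, 7.21 and 7.17 in sham mice. This is a 1.47 (2.77-fold) higher level in MCT vs sham (adjusted p = 0.000945), without overlap. The ETS factors Erg and Ets1 were 0.78 and 0.67 higher (adjusted p = 0.00154 and 0.00581), and Meox2, a homeobox factor of capillaries, was 0.79 higher (adjusted p = 0.019). Gata2 fell by 0.48 (adjusted p = 0.032), and Tcf15 fell by 0.40 (adjusted p = 0.0326). The count of 6 was 3 without MCT mouse 640, MCT mouse 641 or sham mouse 625, and 2 with the atrial mean as a covariate. For MCT+NI vs sham 4 were higher and 1 lower, against 4.52% and 1.75% of all genes, a count of 5 that was 3 without MCT+NI mouse 619 and 2 with that covariate. The calls over all genes changed too. In MCT vs sham they fell from 1179 to 676, 767 and 958 without mice 640, 641 and 625, and to 506 with the covariate. In MCT+NI vs sham they fell from 1179 to 625 without mouse 619 and to 401 with the covariate. The 4 known partners of SoxF proteins, Mef2c, Rbpj, Ctnnb1 and Nr2f2, gave 0 calls in each comparison (limma). At an unadjusted p under 0.05 there were 0 between the diets, 0 for MCT vs sham and 1 for MCT+NI vs sham.

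Beyond the SoxF family, 16 other SOX genes were measured. In MCT mice Sox13 was 0.29 (1.22-fold) higher than in sham mice (adjusted p = 0.038), and Sox6 fell by 0.26 (0.834-fold, adjusted p = 0.0468). Both belong to the SoxD family. Sox6 had log2 intensities of 6.64, 6.55 and 6.54 in MCT+NI mice and 6.64, 6.76 and 6.81 in MCT mice, against 6.94, 6.97 and 7.08 in sham mice. Its difference between the diets was -0.16 (unadjusted p = 0.0367, adjusted p = 1), with overlap. The same genes passed for MCT+NI vs sham, at 0.34 and -0.42 (adjusted p = 0.0191 and 0.00538). In MCT vs sham 1 SOX gene thus passed as higher and 1 as lower of 16, against 4.65% and 1.61% of all genes. This count of 2 was 0 or 1 in each fit that left out 1 mouse, and 0 with the atrial mean as a covariate. In MCT+NI vs sham 1 or 2 were called in the fits without 1 mouse and 0 with the covariate. The calls over all genes changed too, from 1179 in each comparison. In MCT vs sham they were 676 to 1196 without 1 mouse and 506 with the covariate. In MCT+NI vs sham they were 625 to 1183 without 1 mouse and 401 with the covariate.

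In the Notch pathway, which SoxF factors share in arteries, 4 of 19 measured genes passed as higher in MCT vs sham and 0 as lower. For this and the following lists the shares of all genes were 4.65% higher and 1.61% lower in MCT vs sham, and 4.52% and 1.75% in MCT+NI vs sham. These shares are 1179 genes in each comparison. With the atrial mean as a covariate 506 genes passed in MCT vs sham and 401 in MCT+NI vs sham. Without MCT mouse 640, 676 passed in MCT vs sham. Nrarp, a feedback inhibitor of Notch, and Notch4, the endothelial receptor, were each 0.77 higher (adjusted p = 0.00231 and 0.00247). The count was 2 without MCT mouse 640 and 2 with the atrial mean as a covariate. For MCT+NI vs sham 6 were higher, with Lfng and Mfng added, and 2 with the covariate. Of the tip cell and angiogenesis genes 8 of 11 were higher and 0 lower in both comparisons with sham mice, with a median of 0.98 in MCT mice, and the count was 5 with that covariate. Of the VEGF ligands and receptors, which act upstream of endothelial growth, 4 of 10 were higher and 1 lower for MCT vs sham, a count of 5 that was 2 with the atrial covariate. For MCT+NI vs sham 5 were higher and 1 lower, a count of 6 that was 3 without MCT+NI mouse 615, 3 without MCT+NI mouse 619 and 2 with the covariate. Over all genes 682 and 625 passed without mouse 615 and without mouse 619. Among lymphatic markers only Flt4 passed, as 1 of 7. Prox1 and Lyve1, the hyaluronan receptor of lymphatic vessels, differed by -0.13 and 0.10 in MCT vs sham. Venous markers gave 0 of 7 calls (limma, 4 at an unadjusted p under 0.05, against 19.7% of all genes), arterial markers gave 3 of 12 higher, and capillary markers 3 of 9 higher and 4 lower. Endocardial markers gave 0 of 6 calls (limma, 5 at an unadjusted p), with a median of -0.86, and the atrial transcripts gave 0 of 6 (6 at an unadjusted p), with a median of -3.47. Other cell types moved in the same comparison. Of fibroblast markers 3 of 9 were higher, and of macrophage markers 3 of 10 were higher and 1 was lower. Of Wnt and beta-catenin targets 1 of 14 was higher and 1 was lower, and of ventricular cardiomyocyte markers 1 of 10 was lower. Of smooth muscle and pericyte markers 6 of 10 were higher, and of proliferation genes 5 of 7. Their means did not overlap between groups, at 8.46 to 8.67 in MCT and 8.19 to 8.21 in sham mice for the muscle markers. The proliferation mean was 4.95 to 5.51 in MCT mice and 3.74 to 4.09 in sham mice. Their part in the values of the SoxF genes was not tested.

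The genes whose profile over the 9 mice was most like that of Sox18 were AU021092 (Pearson r 0.985), Pros1 (0.979), Bean1 (0.978), Icam2 (0.976) and Olfr1396 (0.973), out of 9410 genes at or above the median level. Pros1 encodes the anticoagulant protein S. Their differences were 0.14 to 0.23 between the diets and 0.73 to 1.33 for MCT vs sham. After the group means were removed, r lay between -0.80 and 0.21. The profiles most opposed were those of Rif1 (-0.974), Fam174b (-0.964) and Ahr (-0.962), the aryl hydrocarbon receptor. Closest to Sox7 were P4ha2 (0.968), a collagen-modifying enzyme, Kit (0.949), the stem cell factor receptor, and Cav2 (0.948), a protein of caveolae. With these r stayed at 0.84 to 0.92 within groups. Closest to Sox17 were Vps25 (0.975), Crebbp (0.922) and Celsr2 (0.907), with 0.91 to 0.97 within groups. These are the extremes of a ranking over many genes in 9 mice and are given as a description.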

How the data were processed

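Right ventricular RNA (100 ng) was labelled and hybridised to Affymetrix mouse gene 1.1 ST arrays. The authors deposited log2 intensity values computed by RMA. The deposited table carries 35556 manufacturer probe set numbers, not the Entrez-based definitions of the methods. Gene symbols came from the platform annotation and were updated by Entrez number (GRCm38.p6). Of the probe sets 12457 had no gene, 1881 had several and 21218 had 1, and the brightest represented a gene. Group means over the 9 arrays were fitted with limma 3.58.1 (R 4.3.3), using its intensity trend. P-values are two-sided and Benjamini-Hochberg adjusted over 18820 genes, with a threshold of 0.05. The procedure was tested on simulated data with independent noise for each gene. These held none of the atrial or cell type differences between the mice, so the simulation does not bear on those. Groups came from the labels, and the number of arrays and the spread between mice limit the precision. In 12042 genes at least 2 mice share a value, but in no SoxF gene.

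The members and the 20 gene lists were chosen with earlier results of these data known. Named were the SoxF genes, up to 4 called genes per list and comparison with the smallest p (otherwise up to 2), and the closest profiles. Cldn5, Tek, Prox1, Notch1, Dll4, Mfng, Acta2 and other list members were named after their values were seen. Protein sequences and promoters of the SoxF genes were not analysed here. Alternatives were other fits, filters, array centring, array weights, covariates and mice left out.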

Additional observations from a re-analysis of the deposited data

How the results depend on the processing

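Each difference was recomputed under 20 alternatives (19 for Sox17, which lies below the median level and so had no value with the filter on level). Sox18 kept its direction in all of them, which adds no support because it was chosen for these differences. Its groups did not overlap, so leaving out mice could not reverse it. Several fits, such as that without the intensity trend, return the same differences by construction. Sox18 moved by more than the spread between replicates only with the endothelial marker mean as a covariate, to 0.78 (MCT vs sham) and 0.99 (MCT+NI vs sham). The SE was 0.093 for both in that fit, against 0.043 without the covariate. Sox7 in MCT+NI vs sham passed the threshold among genes at or above the median level (0.40, adjusted p = 0.0378). In MCT+NI vs MCT, Sox7 reversed to -0.091 without mice 644 and 615 and to -0.059 without MCT+NI mouse 615. Sox17 in MCT vs sham reversed to 0.29 with the endothelial covariate, 0.039 without mice 644 and 615, 0.039 without MCT mouse 644 and 0.037 without sham mouse 620. In MCT+NI vs sham it reversed to 0.22 with the endothelial covariate, and in MCT+NI vs MCT to 0.0082 without MCT mouse 640. Of the pan-endothelial markers 9 instead of 16 passed in MCT+NI vs sham with the atrial mean as a covariate, and of all genes 401 instead of 1179. The cause was not tested.

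With 1 mouse left out, Sox18 ranged from 0.19 to 0.23 (MCT+NI vs MCT), 0.66 to 0.70 (MCT vs sham) and 0.88 to 0.92 (MCT+NI vs sham). Sox7 ranged from -0.059 to 0.10, 0.28 to 0.46 and 0.31 to 0.49 in the same comparisons, and Sox17 from -0.19 to 0.0082, -0.19 to 0.039 and -0.25 to -0.027. The pan-endothelial markers that passed numbered 0, 11 to 15 and 11 to 16. Of the VEGF ligands and receptors 6 of 10 passed in MCT+NI vs sham, but 3 without MCT+NI mouse 615 or 619 and 2 with the atrial covariate. The calls over all genes were 682, 625 and 401 in these fits, against 1179. The counts of the other lists under left-out mice and the atrial covariate, and Sox7 minus Sox17, were added after the data were seen. No paired analysis was possible because mouse numbers are not shared between groups. Between the diets the 95% interval reached from -0.20 to 0.27 for Sox7 and from -0.38 to 0.25 for Sox17, and differences within these bounds were not resolved.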
